A study of Sus scrofa with 42 samples.

Results

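The genes described here encode the basal transcription machinery of pig embryos: subunits of RNA polymerases I, II and III, the general transcription factors of RNA polymerases II and III, the TBP-associated factors (TAFs) and the Mediator complex. They were taken from the expression table by name, as every protein-coding gene whose symbol begins with POLR1, POLR2, POLR3, GTF2 or GTF3, or with TAF or MED followed by a digit. The rule found 85 of 15351 genes, with 20 RNA polymerase subunits, 19 GTF genes, 21 TAF genes and 25 Mediator subunits. The rule used no expression value. POLR2A, POLR3GL, TAF1 and TAF4 were not analysed here.

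Single blastomeres of in vitro fertilized (IVF) and parthenogenetically activated (PA) pig embryos were compared at the 1-, 2-, 4- and 8-cell stages, collected at 19, 27, 48 and 72 h. IVF embryos came from oocytes incubated with semen, whereas PA embryos came from oocytes activated without sperm and carry a maternal genome only; all oocytes had been matured in vitro from gilt ovaries. Each method had 3, 6, 9 and 3 cells at the 4 stages, from 3, 3, 3 and 1 embryos, which gave 42 cells of 20 embryos in 8 groups. The value of an embryo is the mean of its blastomeres, because blastomeres of the same embryo are not replicates, and the single 8-cell embryo of each method has no replicate of its own. FPKM stands for fragments per kilobase of gene, scaled to the mapped fragments of the cell, a level that can be compared between genes of different length.

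As background, RNA polymerase II transcribes mRNA genes after TFIID, TFIIA, TFIIB, TFIIE, TFIIF and TFIIH assemble with it at the start site, and Mediator links activators bound elsewhere to that assembly. RNA polymerase I makes the large ribosomal RNAs with the help of SL1, a complex of TBP and TAFs, and RNA polymerase III makes tRNA and other short RNAs through TFIIIC and TFIIIB. An early embryo starts with RNA and protein stored in the oocyte and with little transcription of its own, and switches its own genome on over the first cell cycles; in pig embryos the main switch is placed around the 4- and 8-cell stages.

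Depth, seen as the reads that the FPKM steps give back for nuclear genes, was 4638370 to 15622231 per cell (median 10655506), of which 24597 to 133339 fell on the 85 genes. A pair of PA 4-cell blastomeres nearly repeated PA 2-cell blastomeres: PA 4-cell-2-1 and PA 2-cell-2-1 had r = 0.9989 across genes, PA 4-cell-1-4 and PA 2-cell-1-2 had r = 0.9988, and the next highest pair of cells had r = 0.9307. These repeat cells were kept under their labels, results of the PA 4-cell group are also given without them, and which label of each pair is right was not tested. Of 11 oocyte markers 9 were in the table, and their summed FPKM was 512 to 1580 up to the 4-cell stage and 76.2 and 56.1 in the IVF and PA 8-cell embryos. The 5 cumulus cell markers in the table summed to at most 19.2, 2 of them stayed below 1 in every embryo, and the blood marker in the table reached 1.76. Mitochondrial genes took 6.07% to 60.6% of an embryo's FPKM. Where members overlap another gene on the opposite strand, reads of the pair cannot be told apart, since the strand setting of the counting is not given in the sources used here.

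Most of the machinery was measured at low levels, with a few subunits far above the rest. POLR1E, a subunit of RNA polymerase I, had the highest level, a mean of 123 FPKM over the 20 embryos (58.0 to 296), and made up 9.52% to 41.3% of the summed FPKM of the 85 genes. MED14, the scaffold that joins the Mediator modules, followed at 37.8 FPKM, MED28 at 33.9, the TFIIE subunit GTF2E2 at 30.7, and POLR3G, an RNA polymerase III subunit known from pluripotent cells, at 29.8. The embryo ranges of these 4 genes overlapped, so their order is not larger than their spread. Averages of 10 FPKM or more were reached by 16 genes, and 30 genes averaged below 1. Only 8 genes were at 1 FPKM or more in all 20 embryos, namely POLR1E, POLR3G, GTF2A1, MED6, TAF2, MED1, MED4 and MED13. No gene was at 1 FPKM or more in all 42 cells, and 9 genes reached it in no embryo.

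**Figure D1:**
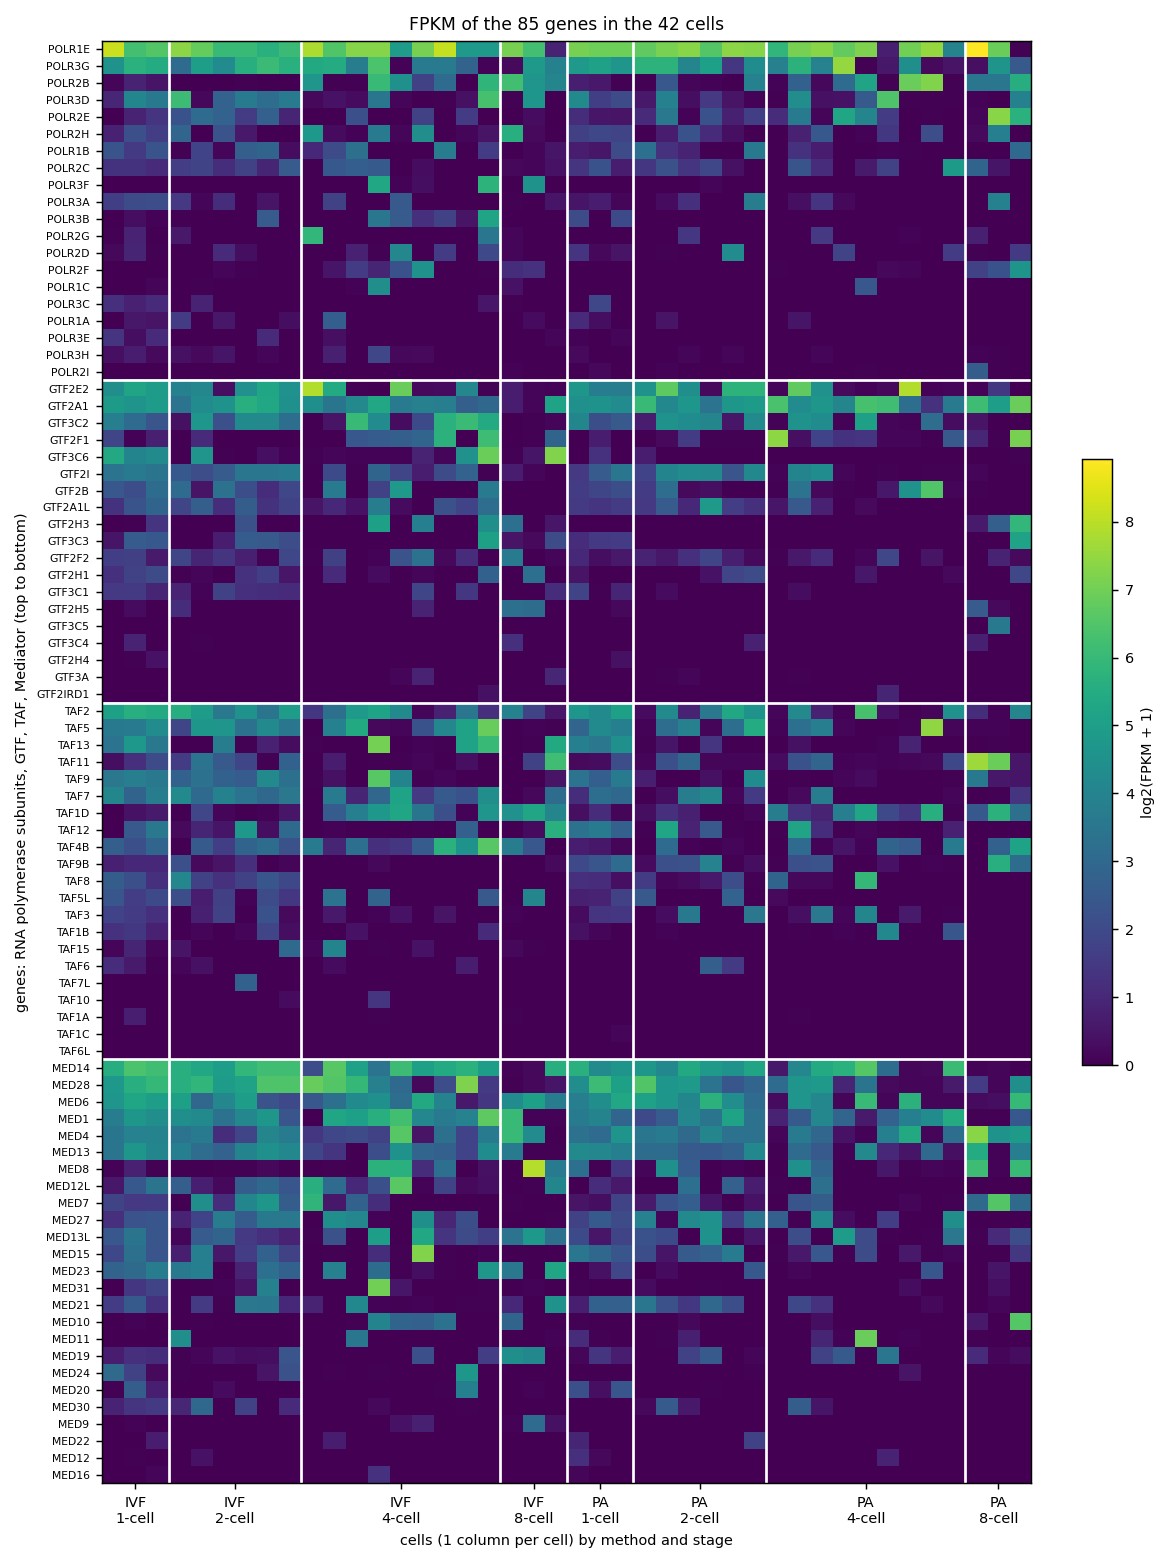
Level of each of the 85 genes (rows, ordered by mean level within RNA polymerase, GTF, TAF and Mediator genes) in each of the 42 cells (columns, by method and stage), as log2(FPKM + 1) in colour. POLR1E is the brightest row, and in 4- and 8-cell blastomeres most other rows break up into isolated bright cells.

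Central subunits lay in the upper and the lower part of the range. POLR1A, the largest subunit of RNA polymerase I, averaged 0.293 FPKM and was at 1 or more in 2 of 20 embryos, whereas POLR1B, the second-largest, averaged 2.19. POLR3A, the largest subunit of RNA polymerase III, averaged 1.35 FPKM (0.00278 to 6.18), and POLR3D of the same enzyme averaged 9.21. POLR2B, the second-largest subunit of RNA polymerase II, averaged 12.1 FPKM but ranged from 0.0125 to 89.3 over the embryos. Among the subunits shared by all 3 enzymes, POLR2E averaged 5.97, POLR2H 3.30 and POLR2F 0.992 FPKM. Without the PA 8-cell embryo these means were 2.59, 3.23 and 0.522, so that this 1 embryo put POLR2E above POLR2H. GTF2B, the single-chain factor TFIIB that bridges TBP and the polymerase, averaged 5.25 FPKM and in the 8-cell embryos was listed at 0 (IVF) and at 0.0126 (PA).

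Within TFIID the highest averages were those of TAF2, which contacts initiator DNA, at 20.4 FPKM, TAF5 at 14.4 and TAF13 at 10.3. TAF2 was 33.0, 48.3 and 42.8 FPKM in the IVF 1-cell embryos and 5.64 in the IVF 8-cell embryo, and in PA embryos 24.5, 18.2 and 32.8 against 5.68. In TFIIA, GTF2A1 averaged 27.4 FPKM and had a value of 1 or more in 40 of 42 cells, more than any other gene of the 85. The highest members of the other factors were GTF2F1 for TFIIF (8.98 FPKM), GTF2H3 for TFIIH (2.64), GTF3C2 for TFIIIC, GTF2I for the TFII-I family (6.46), TAF1D for SL1 (6.78) and TAF5L for the SAGA-type TAFs (1.85). In Mediator, MED6 led the head (21.1 FPKM), MED1, the contact of nuclear receptors, the middle (17.8), MED15 the tail (5.22) and MED13 the kinase module. Some of these averages include very high single blastomeres. MED15 was 151 FPKM in IVF 4-cell-3-1, GTF2F1 169 in PA 4-cell-1-3 and GTF2H3 58.6 in PA 8-cell-1-4. Whether these genes lead without those cells was not tested. MED6 shares its span with an unnamed gene on the opposite strand (r = 0.984 over 42 cells).

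Fewer of the genes were detected per cell from the 1- to the 4-cell stage in both methods, and at the 8-cell stage the median went down further in IVF and up in PA. IVF cells held a median of 47 of the 85 genes at 1 FPKM or more at the 1-cell stage, 35.5 at the 2-cell, 26 at the 4-cell and 19 at the 8-cell stage. PA cells held 37, 27, 14 and 18. The share of all protein-coding genes went down as well: 55.3% of the 85 genes against 38.3% of protein-coding genes were detected in the median IVF 1-cell embryo, and 22.4% against 13.6% in the median IVF 8-cell blastomere. In PA cells the shares were 43.5% against 32.1% at the 1-cell stage and 21.2% against 11.9% at the 8-cell stage. The 2 repeat cells held 31 genes each, above the 9 to 19 of the other PA 4-cell blastomeres, whose median was 12. Taken per embryo, with blastomeres averaged, the fall was smaller: 42, 49 and 47 genes in IVF 1-cell embryos and 35 in the IVF 8-cell embryo, and 38, 35 and 37 in PA 1-cell embryos and 32 in the PA 8-cell embryo. These shares are descriptions with no test, and depth differed between the cells.

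**Figure D2:**
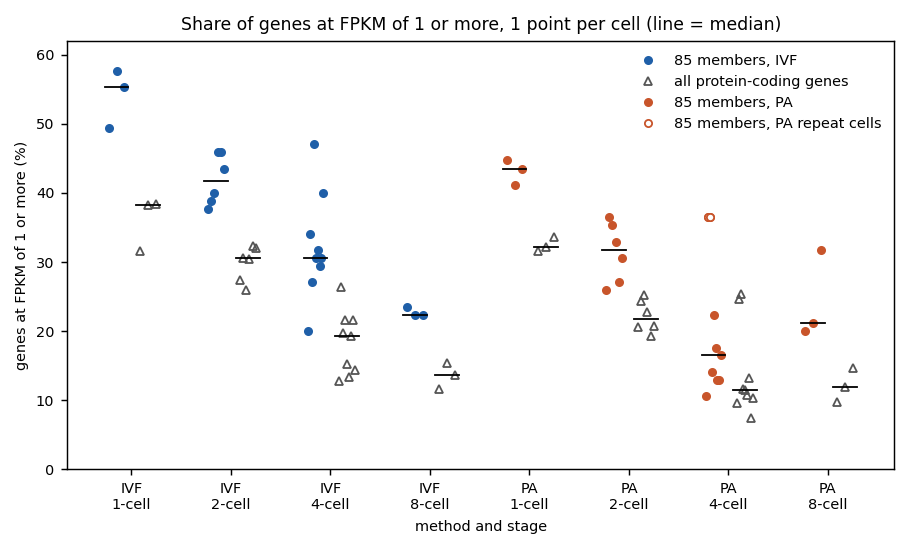
Share of genes at FPKM of 1 or more in each cell (y axis, %), by method and stage, for the 85 genes (circles) and all protein-coding genes (triangles); lines are medians over cells and open circles are the repeat cells. The median of the 85 genes goes from 55.3% to 22.4% in IVF and from 43.5% to 21.2% in PA, above the median of all protein-coding genes in every group.

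The summed level took no such course. The 85 genes summed to 446 to 979 FPKM per embryo, which was 0.412% to 0.745% of nuclear FPKM. In IVF embryos Mediator subunits summed to 235 ± 69.4 FPKM at the 1-cell stage (SD, n = 3), 213 ± 56.5 at the 2-cell, 282 ± 89.8 at the 4-cell and 236 at the 8-cell stage. In PA embryos they summed to 163 ± 7.70, 149 ± 33.3, 107 ± 41.2 and 233. RNA polymerase subunits summed to 217 ± 98.9 FPKM in IVF 1-cell embryos and 175 ± 17.6 in PA 1-cell embryos, and to 156 and 334 in the 8-cell embryos. The spread between embryos was of the size of most of these differences, and no test was made of a sum over the genes.

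The steps between stages were tested on log2(FPKM + 1) of the embryos with limma over 8116 genes, 67 of the 85 among them; a gene is called at an adjusted p under 0.05 and a change of at least 2-fold. The other 18 genes were too low to enter. For a gene listed at 0 in a whole group, such as POLR2F or GTF2H3, the log2 value depends on the added 1 and gives no fold. From the 1- to the 2-cell stage none of the 67 genes was called in either method. In IVF embryos 0.0% of all genes tested were called at this step, 4 of the 67 (5.97%) had an unadjusted p under 0.05, and all 4 were lower at the 2-cell stage. Of all genes 2.66% did, 159 of 216 of them lower. In PA embryos 0.0986% of all genes were called, 3 of the 67 had an unadjusted p under 0.05 (4.48%, against 4.85% of all genes), and the median log2 fold change was 0.01 against -0.09 for all genes.

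At the 2- to 4-cell step of IVF embryos 3 of the 67 genes rose, TAF1D, POLR2B and POLR2F, and none fell. The share called higher was 0.616% of all genes tested, and the share called lower 0.493%. TAF1D, a subunit of SL1 that helps bring RNA polymerase I to ribosomal RNA genes, was 0.0179, 0.356 and 0.563 FPKM in the 1-cell embryos, 1.39, 0.0643 and 0.264 in the 2-cell embryos, 6.24, 31.3 and 9.51 in the 4-cell embryos and 24.7 in the 8-cell embryo. All 4-cell embryos lay above all 1- and 2-cell embryos, and the log2 fold change was 3.19 ± 0.73 (SE, adjusted p = 0.0379). In PA embryos TAF1D was 0.282, 1.21 and 0.0812 FPKM, then 0.808, 0.360 and 0.0488, then 6.86, 13.4 and 16.4, and 21.8 at the 8-cell stage. These groups did not overlap either, and the log2 fold change was again 3.19 ± 0.73, at an adjusted p of 0.0644; without the 2 repeat cells it was 3.57 ± 0.71 (adjusted p = 0.00434).

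POLR2B was 0.0125, 0.0278 and 0.0130 FPKM in the IVF 2-cell embryos and 8.15, 42.2 and 16.5 in the IVF 4-cell embryos, a log2 fold change of 4.23 ± 0.98 (adjusted p = 0.0416), and 37.8 in the 8-cell embryo. PA 2-cell embryos were at 2.18, 0.0739 and 7.16 FPKM and PA 4-cell embryos at 2.98, 11 and 89.3, so that the PA groups overlapped (log2 fold change 2.42 ± 0.98, adjusted p = 0.362). POLR2B overlaps IGFBP7 on the opposite strand over 5117 bases, and the levels of the pair had r = 0.906 over 42 cells. POLR2F, a small subunit shared by the 3 polymerases, was listed at 0 in 11 of 12 embryos of the 1- and 2-cell stages and at 0.0675 FPKM in the other, and was 0.799, 2.34 and 5.73 in the IVF 4-cell embryos (log2 fold change 1.75 ± 0.41, adjusted p = 0.0454). In PA 4-cell embryos it was 0.0210, 0.0366 and 0.0361 FPKM. SOX10 overlaps the whole POLR2F gene on the opposite strand, with r = 0.904.

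These IVF calls lay close to the threshold. None of the 67 genes was called when any 1 embryo of the IVF 1-cell, IVF 2-cell or PA 1-cell group was left out. Without IVF 4-cell embryo 2, IVF 4-cell embryo 3 or PA 2-cell embryo 1, 1 was called, and 9 were called without IVF 4-cell embryo 1. Here and below, the share of all genes called without a given embryo is not given, so these counts have no background beside them. POLR2F was also not called without any 1 of the PA 2-cell embryos or PA 4-cell embryo 1 or 2, and POLR2B not without PA 2-cell embryo 1. Leaving the 2 repeat PA cells out of the shared fit gave 2 calls at this IVF step in place of 3. The shares of all genes were then 0.567% higher and 0.641% lower. Over all alternatives TAF1D kept its call in 15 of 28, POLR2B in 11 of 28 and POLR2F in 7 of 27. Against the 1-cell stage, TAF1D (log2 fold change 3.39 ± 0.73, adjusted p = 0.0219) and POLR2F (1.78 ± 0.41, adjusted p = 0.0327) rose in IVF 4-cell embryos, where 0.961% of all genes were called higher and 1.24% lower. The count was 0 without any 1 of the IVF 1-cell embryos, 7 without IVF 4-cell embryo 1 and 4 without PA 4-cell embryo 3, and TAF1D was not called without IVF 4-cell embryo 2. Median-ratio scaling of the embryos left no call at either step and moved the median log2 fold change of all genes at the 2- to 4-cell step from -0.23 to 0.18; that of the 67 genes went from -0.05 to 0.57.

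The promoter windows of TAF1D and POLR2F are shown because these genes rose together at the IVF 2- to 4-cell step. Each window is the 200 bases before the start of the gene in Sscrofa11.1 (RefSeq), on the gene's strand, at chr9:26167299-26167498 (minus strand) for TAF1D and chr5:9917745-9917944 (minus strand) for POLR2F. Capitals mark matches, on either strand, to GGGCGG (the GC box), CCAAT (the CCAAT box), CCGGAA (the ETS motif), TGACG (the core of the cAMP response element), TGCGCA (the core of the NRF1 motif) or TATAAA (the TATA box).
TAF1D: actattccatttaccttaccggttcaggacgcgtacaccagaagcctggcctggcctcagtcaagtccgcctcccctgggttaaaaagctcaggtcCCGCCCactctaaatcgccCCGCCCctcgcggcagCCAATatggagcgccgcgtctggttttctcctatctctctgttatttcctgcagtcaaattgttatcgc
POLR2F: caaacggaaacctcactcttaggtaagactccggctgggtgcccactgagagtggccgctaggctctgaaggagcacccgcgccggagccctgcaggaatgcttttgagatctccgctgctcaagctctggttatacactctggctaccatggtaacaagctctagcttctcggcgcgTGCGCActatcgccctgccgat
TAF1D holds 2 GC boxes and 1 CCAAT, and POLR2F holds 1 TGCGCA and no GC box, so the pair shares none of the listed motifs in this window.

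At the 2- to 4-cell step of PA embryos none of the 67 genes was called with all cells, where 0.394% of all genes were called in either direction, 7 of the 67 had an unadjusted p under 0.05 (10.4%, against 10.8% of all genes), and the median log2 fold change was -0.10 against -0.17 for all genes. Without the 2 repeat cells TAF1D rose and GTF2I fell, at shares of all genes of 1.15% called higher and 6.26% called lower. GTF2I, which binds initiator and E-box elements, was 8.91, 18.1 and 10.5 FPKM in PA 2-cell embryos and 7.62, 4.83 and 0.0280 in PA 4-cell embryos. Without the repeat cells the 4-cell mean was 0.0410 ± 0.0121 FPKM (SD, n = 3) in place of 4.16 ± 3.84, and the log2 fold change was -3.64 ± 0.70 (adjusted p = 0.00355). With all cells it was -1.80 ± 0.81 (adjusted p = 0.421). The repeat cells thus decided the value of GTF2I in 2 of 3 PA 4-cell embryos. With all cells, 1 gene was called without IVF 4-cell embryo 1, IVF 4-cell embryo 2 or PA 4-cell embryo 1.

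From the 1- to the 4-cell stage of PA embryos TAF1D rose (log2 fold change 3.11 ± 0.73, adjusted p = 0.0439), at shares of 0.505% of all genes called higher and 0.444% lower. Without the 2 repeat cells TAF1D rose by 3.49 ± 0.71 and MED28, GTF2I, TAF13 and TAF9B fell, where 1.5% of all genes were called higher and 9.35% lower. TAF13, a histone-fold partner of TAF11 in TFIID, was 13.5, 10.5 and 21.1 FPKM in PA 1-cell embryos and 0.165, 0.0194 and 0.263 in PA 4-cell embryos (log2 fold change -3.76 ± 1.12 with all cells, adjusted p = 0.117, and -3.83 ± 1.13 without the repeat cells, adjusted p = 0.0364). The call of TAF1D with all cells was lost without any 1 embryo of the PA 1-cell, IVF 1-cell or IVF 2-cell group, without PA 2-cell embryo 1 or 2, and without PA 4-cell embryo 2 or 3, and 2 genes were called without IVF 4-cell embryo 1, IVF 4-cell embryo 2 or PA 4-cell embryo 1.

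**Figure D3:**
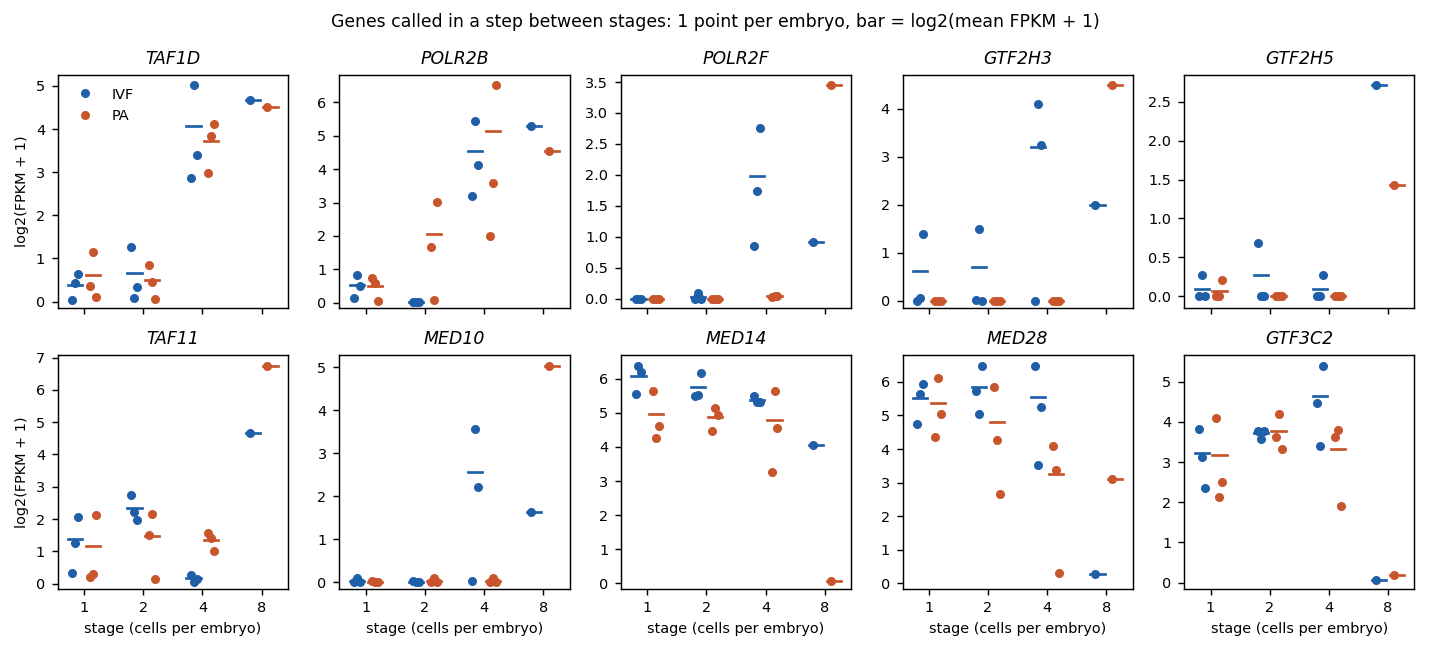
The 10 genes called in a step between stages: log2(FPKM + 1) of each embryo (y axis) by stage (x axis), IVF in blue and PA in orange, bars at log2 of the mean FPKM plus 1. TAF1D is up in every 4- and 8-cell embryo of both methods, whereas GTF2H5 and TAF11 stand out in the single 8-cell embryo of each method.

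The 4- to 8-cell step compares 3 embryos with 1, and the fit assumes that the lone 8-cell embryo, which has no spread of its own, varies like the embryos of the other groups. When each fit held only its own 2 groups, no IVF call and 1 PA call were made at this step. In IVF embryos GTF2H5 and TAF11 were called higher and GTF3C2 and MED28 lower, where 3.72% of all genes were called higher and 3.25% lower. In PA embryos GTF2H3, GTF2H5, MED10, POLR2F and TAF11 were called higher and MED14 lower, where 6.81% were called higher and 3.18% lower. The 2 of 67 and 5 of 67 genes called higher lay near these background shares. Median log2 fold changes were -0.44 in IVF (all genes -0.38) and 0.0 in PA (all genes -0.15); under median-ratio scaling the IVF median of the 67 genes turned to 0.39, against -0.04 for all genes. The IVF calls then numbered 7 higher and 0 lower, at 12.3% and 1.96% of all genes, so that GTF3C2 and MED28 lost theirs.

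GTF2H5, the smallest subunit of the TFIIH core, which opens promoter DNA and also serves in DNA repair, was listed at 0 in 14 of 18 embryos up to the 4-cell stage and reached 0.612 FPKM in the highest of them. It was 5.56 FPKM in the IVF 8-cell embryo (log2 fold change 2.62 ± 0.40, adjusted p = 0.000314) and 1.70 in the PA 8-cell embryo (1.43 ± 0.40, adjusted p = 0.0277). Its 8-cell blastomeres were at 8.85, 7.84 and 0 FPKM in IVF and 4.93, 0.164 and 0 in PA, so that 1 blastomere of each embryo was listed at 0. GTF2H3, another subunit of the TFIIH core, was listed at 0 in all 9 PA embryos up to the 4-cell stage and was 21.5 FPKM in the PA 8-cell embryo (log2 fold change 4.49 ± 1.12, adjusted p = 0.0136). In IVF embryos it was 0, 16.2 and 8.54 FPKM at the 4-cell stage and 2.99 at the 8-cell stage. GTF2H3 shares 19854 bases with an unnamed gene on the opposite strand (r = 0.0675).

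TAF11, a TFIID subunit, was 0.214, 0.0382 and 0.102 FPKM in IVF 4-cell embryos and 24.5 in the IVF 8-cell embryo (log2 fold change 4.51 ± 1.07, adjusted p = 0.0117). In PA embryos it was 1.99, 1.69 and 1.01 FPKM and then 106 (5.40 ± 1.07, adjusted p = 0.00277). The 8-cell level was carried by some blastomeres only: 0, 2.33 and 71.1 FPKM in the IVF embryo and 197, 120 and 0.457 in the PA embryo. TAF11 lies wholly within UHRF1BP1 on the opposite strand (r = -0.078). MED10, a subunit of the Mediator middle module, was at or below 0.0685 FPKM in every PA embryo up to the 4-cell stage and 31.7 in the PA 8-cell embryo (5.0 ± 0.86, adjusted p = 0.00086), from blastomeres at 0.524, 0 and 94.7 FPKM. In IVF embryos it was 0.0126, 10.9 and 3.67 FPKM at the 4-cell stage and 2.10 at the 8-cell stage. POLR2F was 9.92 FPKM in the PA 8-cell embryo (3.40 ± 0.59, adjusted p = 0.00086) and was found in each of its 3 blastomeres, at 2.29, 3.71 and 23.7 FPKM.

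The windows before GTF2H5 (chr1:8935031-8935230, minus strand), GTF2H3 (chr14:29355466-29355665, minus strand) and MED10 (chr16:75516792-75516991, plus strand) are shown as those of genes called higher at the 4- to 8-cell step. Capitals mark the same motifs as above.
GTF2H5: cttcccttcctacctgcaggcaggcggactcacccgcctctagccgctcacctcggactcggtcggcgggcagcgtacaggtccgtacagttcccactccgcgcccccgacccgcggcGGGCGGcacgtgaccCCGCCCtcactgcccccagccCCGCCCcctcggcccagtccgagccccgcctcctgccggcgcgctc
GTF2H3: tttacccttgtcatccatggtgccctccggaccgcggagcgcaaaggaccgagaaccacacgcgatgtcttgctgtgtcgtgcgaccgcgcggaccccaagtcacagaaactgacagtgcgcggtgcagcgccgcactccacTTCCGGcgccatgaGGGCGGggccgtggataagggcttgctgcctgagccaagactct
MED10: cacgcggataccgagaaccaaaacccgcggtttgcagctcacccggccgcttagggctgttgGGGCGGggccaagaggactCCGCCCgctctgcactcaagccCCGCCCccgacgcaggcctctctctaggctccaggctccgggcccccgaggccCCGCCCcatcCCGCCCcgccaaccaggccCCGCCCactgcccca
GC boxes number 3 in GTF2H5, 1 in GTF2H3 and 6 in MED10, and GTF2H3 also holds 1 CCGGAA. The GC content of these windows was 76.0%, 64.0% and 73.5%.

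Over the 250 bases before the start, the motifs were counted in the 85 genes and in all 15322 promoters. GGGCGG was found on either strand in 45.9% of the 85 promoters and 45.1% of all, CCAAT in 29.4% and 31.9%, and TATAAA in 7.06% and 9.63%. CCGGAA was found in 20% and 15%, TGACG in 25.9% and 20.4%, TGCGCA in 11.8% and 7.35%, and CANNTG, the E-box, in 65.9% and 60.5%. The median GC content was 57.2% and 57.6%. No test was made of these shares, and a match of letters is no sign that a factor binds there.

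The genes called lower at the 4- to 8-cell step were MED14 in PA and MED28 and GTF3C2 in IVF embryos. MED14 was 8.58, 48.9 and 22.6 FPKM in PA 4-cell embryos and 0.0522 in the PA 8-cell embryo (log2 fold change -4.41 ± 0.86, adjusted p = 0.00239), whose blastomeres were at 0.0573, 0.0830 and 0.0162. In IVF embryos it was 44.4, 38.6 and 39.0 FPKM at the 4-cell stage and 15.7 at the 8-cell stage, where blastomeres were at 0.0573, 0.130 and 46.9. MED28, a Mediator subunit found in animals, was 88.6, 10.5 and 37.3 FPKM in IVF 4-cell embryos and 0.204 in the IVF 8-cell embryo (-4.82 ± 1.38, adjusted p = 0.0386). In PA embryos it was 16.1, 9.43 and 0.253 FPKM and then 7.60. GTF3C2, a subunit of TFIIIC, which recognises promoters of RNA polymerase III, was 21.1, 9.48 and 41.2 FPKM in IVF 4-cell embryos and 0.0416 in the IVF 8-cell embryo (-4.36 ± 1.05, adjusted p = 0.0128). In PA embryos it was 11.3, 12.9 and 2.78 FPKM and then 0.132 (-2.94 ± 1.05, adjusted p = 0.0899).

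Without the 2 repeat cells, 9 of the 67 genes were called higher and none lower at the PA 4- to 8-cell step, where 8.1% of all genes were called higher and 1.63% lower. MED7, MED8, POLR2E and TAF9B were added to the genes called higher with all cells, and MED14 was no longer called (log2 fold change -3.53 ± 1.29, adjusted p = 0.101). POLR2E, a subunit shared by the 3 polymerases, was 70.2 FPKM in the PA 8-cell embryo and 6.40, 13.8 and 0.0132 in PA 4-cell embryos with all cells. Its log2 fold change was 4.34 ± 1.27 without the repeat cells and 3.89 ± 1.23 with them. MED8, of the Mediator head, was 44.4 FPKM in the PA 8-cell embryo and 10.6, 1.77 and 0.0675 at the PA 4-cell stage with all cells. Without the repeat cells its PA 4-cell mean was 0.0899 FPKM. The log2 fold change of MED8 was 5.38 ± 1.64 without the repeat cells and 3.8 ± 1.77 with them. With all cells, more of the 67 genes were called at this step when any 1 IVF 4-cell embryo was left out. In IVF embryos more were called without IVF 4-cell embryo 2. The share of all genes in these fits is not given here. MED28 was not called in IVF embryos without IVF 1-cell embryo 2 or 3, IVF 2-cell embryo 1, IVF 4-cell embryo 1 or 3, or PA 1-cell embryo 3. When each fit held only its own 2 groups, no IVF call was made at the earlier steps either.

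**Figure D4:**
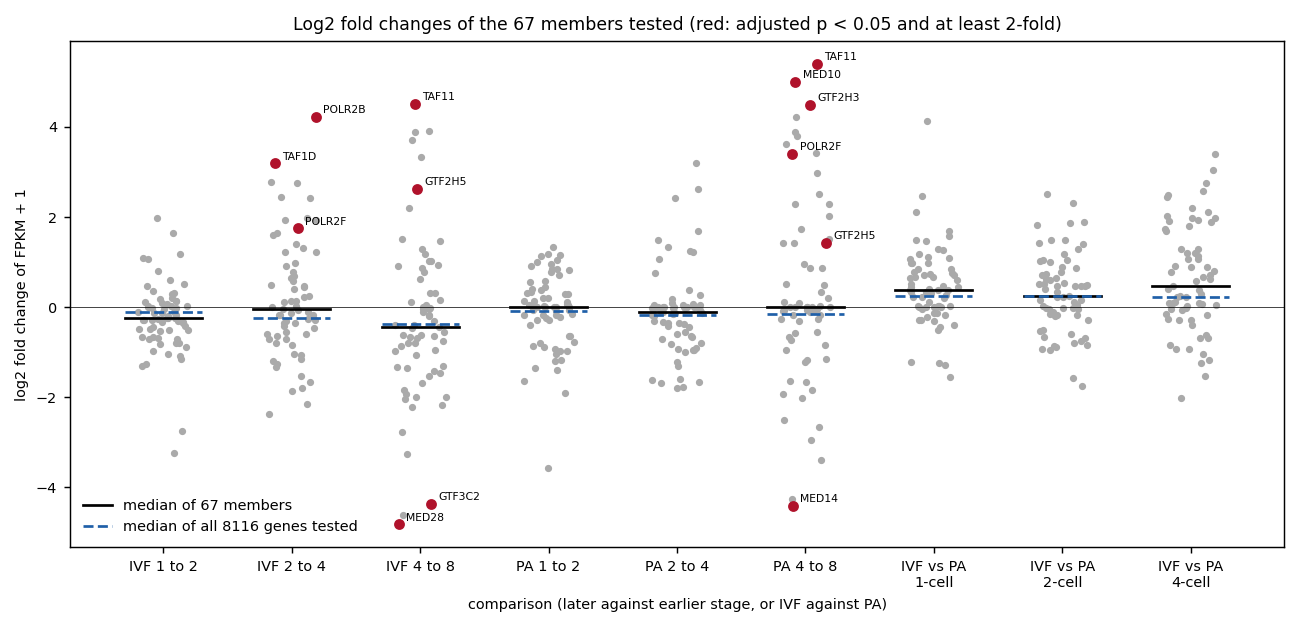
Log2 fold change of FPKM + 1 (y axis) of each of the 67 genes tested in 9 comparisons (x axis), genes called in red with their names, black lines at the median of the 67 genes and dashed blue lines at the median of all 8116 genes. Called genes appear only at the IVF 2- to 4-cell and both 4- to 8-cell steps, and the medians stay between -0.44 and 0.48.

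Whether a step differed between the methods was tested by the difference of the log2 fold changes, IVF minus PA. At the 4- to 8-cell step, where each method has 1 embryo at the 8-cell stage and its spread is taken from the other groups, POLR2F (-4.26 ± 0.83, adjusted p = 0.00985) and MED10 (-5.31 ± 1.22, adjusted p = 0.0227) differed, with 2.86% of all genes called in either direction. As a share of the 67 genes tested, POLR2F and MED10 lay near that share of all genes. In IVF embryos MED10 was 3.67 FPKM or more in 2 of 3 embryos at the 4-cell stage and 2.10 at the 8-cell stage, whereas in PA embryos it went from 0.0656 or less to 31.7, a level carried by 1 blastomere. Without the 2 repeat cells the values were -4.25 and -5.34, and both genes stayed called. The call of MED10 was lost with median-ratio scaling (-2.95), a pseudocount of 0.1 (-7.67) and the mean of log2 values over blastomeres (-3.08). For POLR2F the difference was -7.49 to -1.95 over the alternatives that tested it. Each alternative kept the single 8-cell embryo of each method, so none can show whether the difference holds in other embryos. At the 2- to 4-cell step none of the 67 genes and 0.0% of all genes differed; 6 of the 67 and 5.35% of all genes had an unadjusted p under 0.05. TAF1D had a log2 fold change of 3.19 in both methods at that step.

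Between methods at a given stage, none of the 67 genes was called at the 1-cell stage (0.0493% of all genes), the 2-cell stage (0.0%) or the 4-cell stage (0.554%). At an unadjusted p under 0.05 there were 8 genes at the 1-cell stage, all higher in IVF, 3 at the 2-cell stage and 16 at the 4-cell stage, of which 14 were higher in IVF. These are 11.9%, 4.48% and 23.9% of the 67, against 4.09%, 5.43% and 14.0% of all genes, and the genes higher in IVF were also the more frequent among all genes (256 of 332, 366 of 441 and 886 of 1134). Median log2 differences, IVF minus PA, were 0.38, 0.24 and 0.48, against 0.24, 0.25 and 0.23 for all genes. Under median-ratio scaling they were 0.02, 0.03 and 0.18, against 0.0, 0.0 and -0.07 for all genes. GTF3C6, a TFIIIC subunit named here after its values were seen, was 40.5, 15.2 and 18.1 FPKM in IVF 1-cell embryos and 0, 1.40 and 0 in PA 1-cell embryos, groups that did not overlap, at an adjusted p of 0.646 (log2 difference 4.13 ± 1.15).

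Without the 2 repeat cells, POLR2F, POLR3F and TAF7 were higher in IVF than in PA 4-cell embryos and none was lower, where 3.75% of all genes were called higher and 0.32% lower. POLR3F, a subunit that RNA polymerase III uses to open promoters, was 0.0125, 20.1 and 13.3 FPKM in IVF 4-cell embryos and listed at 0 in the 3 PA ones (log2 difference 2.75 ± 0.73, adjusted p = 0.0386). These IVF values came from few cells, with 40.0 and 53.1 FPKM in 2 of 9 blastomeres and at most 0.248 in the others. TAF7, a TFIID subunit that binds TAF1, was 4.12, 20.9 and 7.59 FPKM in IVF 4-cell embryos and 0.0781, 3.11 and 0.0458 in PA 4-cell embryos (3.28 ± 0.90, adjusted p = 0.0474; with all cells 2.57 ± 0.94, adjusted p = 0.215). With all cells, 6 genes were called without IVF 4-cell embryo 1 and 1 without IVF 4-cell embryo 2 or 3.

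At the 8-cell stage, with 1 embryo per method, values are given side by side and the methods were not tested against each other. TAF1D (24.7 FPKM in IVF and 21.8 in PA), MED6 (21.1 and 20.7) and TAF2 (5.64 and 5.68) had similar values in both embryos. TAF11 was 24.5 in IVF and 106 in PA, MED10 2.10 and 31.7, GTF2H3 2.99 and 21.5, POLR2F 0.894 and 9.92, and POLR2E 0.0771 and 70.2. MED14 was 15.7 in IVF and 0.0522 in PA, MED1 21.0 and 1.51, and GTF3C6 50.1 and 0.0122. MED6, POLR2E, GTF3C6 and TAF2 are set here for contrast and were picked after their values were seen.

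Sister blastomeres of an embryo diverged at the 4- and 8-cell stages, in these genes as in all genes tested. Among the 67 genes tested, those at 10 FPKM or more in either cell of a sister pair were taken. The share of them below 1 in the other cell was a median of 20% over 3 pairs in IVF 2-cell embryos. It was 48.4% over 10 pairs in IVF 4-cell embryos and 66.7% over 3 pairs in the IVF 8-cell embryo. In PA embryos it was 35.3%, 64.7% and 54.2%, and 59.6% in the PA 4-cell embryos without the repeat cells. All 8116 genes tested had 11.9%, 54.6% and 56.0% in IVF and 27.4%, 60.0% and 59.2% in PA. Without the repeat cells they had 61.2% in the PA 4-cell embryos. POLR1E shows the pattern at the high end of the range, at 135, 76.1 and 0.852 FPKM in the IVF 8-cell blastomeres and 484, 119 and 0.0276 in the PA 8-cell blastomeres. TAF1D was 21.6, 36.8 and 15.6 FPKM in the IVF 8-cell blastomeres and 4.48, 52.1 and 8.72 in the PA ones. Pairs of the same embryo share cells, so these shares are given without a test.

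**Figure D5:**
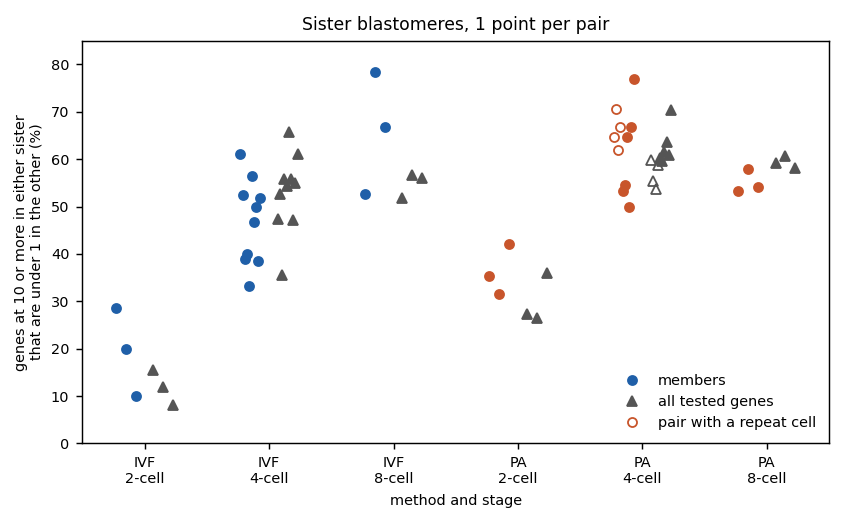
Share of genes at 10 FPKM or more in either of 2 sister blastomeres that were below 1 in the other (y axis, %), 1 point per pair, by method and stage. Circles are the 67 of the 85 genes that were tested, triangles all tested genes and open symbols pairs with a repeat cell. The shares are lowest in IVF 2-cell pairs (10% to 28.6%) and reach 78.3% in the IVF 8-cell embryo.

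Paralogue pairs differed in how far, and in how many embryos, 1 gene lay above the other. GTF2A1 was above GTF2A1L, its germ cell form, in 20 of 20 embryos (median log2 ratio 3.14 on FPKM + 1), and TAF7 above TAF7L in 20 of 20 (2.60, which was 5.69 on FPKM + 0.1 and 1.13 on FPKM + 5). TAF5 was above TAF5L in 18 of 20 (2.17), TAF9 above TAF9B in 14 of 20 (0.459) and MED13 above MED13L in 14 of 20 (1.12). The exceptions to the lead of TAF5 were IVF 4-cell embryo 2 (0.118 against 3.09 FPKM) and the IVF 8-cell embryo (0.0279 against 5.33). TAF6 (0.299 FPKM on average) and TAF6L were both near the bottom of the range; TAF6 overlaps AP4M1 on the opposite strand (r = 0.898), and TAF9 shares 4824 bases with AK6 on its own strand. MED12, which activates the kinase of its module, was above MED12L in 1 of 20 embryos, with a median log2 ratio of -1.62 (-3.34 on FPKM + 0.1 and -0.548 on FPKM + 5). MED12L was 18.9, 50.7 and 0.778 FPKM in IVF 4-cell embryos and 0.0175, 2.23 and 0.0114 in PA 4-cell embryos. TAF4B, the germ cell form of TAF4, was 7.09, 1.5 and 44.2 FPKM in IVF 4-cell embryos and 13.6 in the PA 8-cell embryo.

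Of 66 partner genes of the machinery (the TBP family, RNA polymerase I factors, TFIIIB and SNAPc, the TFIIH and Mediator kinases, pausing, elongation, polymerase assembly and mitochondrial transcription), 58 were in the table and 45 were tested. At the 2- to 4-cell step 2 were called higher in IVF, where 0.616% of all genes were. In PA 1 was called higher, where 0.382% of all genes were. None was called lower. TFAM, which packages mitochondrial DNA and takes part in its transcription, was at most 0.0867 FPKM in IVF 1- and 2-cell embryos. It was 20.8, 111 and 100 in IVF 4-cell embryos (log2 fold change 5.92 ± 0.68, limma adjusted p = 0.000104). In PA it rose by 5.96 ± 0.68 (adjusted p = 0.000165), to 94.3, 79.3 and 116 FPKM. RTF1, an elongation factor, rose in IVF (3.52 ± 0.79, adjusted p = 0.0352). At the 4- to 8-cell step, which has 1 embryo per method at the 8-cell stage, TFB2M and BTAF1 were higher in PA. The log2 fold change was 4.56 ± 0.74 for TFB2M, also a mitochondrial transcription factor, and 4.28 ± 1.34 for BTAF1, which removes TBP from DNA. TBPL1 was lower in IVF (-3.07 ± 0.90). As shares of the partners tested, these 4- to 8-cell calls were below the shares of all genes. Of the TBP family, TBPL1 was 185 to 282 FPKM in IVF 1- and 2-cell embryos and 8.64 in the IVF 8-cell embryo, TBP itself was 1.19, 9.90 and 16.0 in IVF 1-cell embryos and 0.0536 in the IVF 8-cell embryo, and TBPL2, the oocyte form, was at most 5.91 in any embryo.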

How the data were processed

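Expression was measured by RNA-seq of single blastomeres. The deposited values are FPKM, for which the authors amplified the cDNA of each cell with Ansuper-seq (transcripts with or without a polyA tail), sequenced it on a HiSeq X-Ten, aligned it to the Sscrofa11.1 genome (HISAT2) and assembled and counted transcripts (StringTie, HTSeq). Versions, the annotation release and strandedness are not given in the sources used here; the extraction text of the labels describes TRIzol RNA of oocytes instead. No molecular identifiers are named, so reads are not independent molecules. Reads per cell were derived from the FPKM steps, which were whole (within 0.01 reads) for 11056 of 11059 nuclear genes above 0 in at least 4 cells.

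FPKM of blastomeres were averaged per embryo. Genes at FPKM of 1 or more in at least 3 cells entered 1 limma 3.58.1 fit (R 4.3.3, trend) of log2(FPKM + 1) over 20 embryos and 8 groups, with Benjamini-Hochberg adjustment; these fold changes understate those of low genes. The study used a count model; none was run on the derived reads, which served for depth only. Whether embryos came from separate animals is not stated. The fit was tested on simulated data in which 50 genes were changed by a set log2 size. At a size of 1 it called 0 of them at the IVF and at the PA 2- to 4-cell step. At a size of 2 it called 1 and 2, and at a size of 4 it called 25 and 27. At the IVF 4- to 8-cell step it called fewer at the sizes of 2 and 4. A gene that was not called may thus still have changed. Alternatives were pseudocounts of 0.1 and 5, no filter, a filter at FPKM of 5, median-ratio and nuclear-total scaling and the mean of log2 values. Further alternatives were only the groups compared, an embryo-number block, and leaving out the repeat cells or each embryo up to the 4-cell stage. The 8-cell embryos were never left out. Alternatives of the interaction were chosen after seeing the data. The genes, lists and rules were chosen with earlier results of these data known. Named are all genes called, the highest member of each complex, central subunits, paralogue pairs and called partners.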

Additional observations from a re-analysis of the deposited data

Results flagged for a closer look

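MED10 and POLR2F are flagged for a difference of the 4- to 8-cell step between IVF and PA. The fit has 1 embryo per method at the 8-cell stage and takes its spread from the other groups. As a share of the 67 genes tested, such differences lay near the share over all genes. MED10 differed by -5.31 and POLR2F by -4.26 on the log2 scale, IVF minus PA. Among the partner genes RTF1 differed by -6.06 (SE 1.58, limma adjusted p = 0.046), from 16.1, 23.7 and 5.75 FPKM in IVF 4-cell embryos to 0.596 in the IVF 8-cell embryo, and from 1.28, 0.103 and 8.20 to 20.4 in PA. MED10 at the PA 8-cell stage came from 1 blastomere (0.524, 0 and 94.7 FPKM), and its call was lost under 3 of 27 alternatives. No alternative left out an 8-cell embryo. POLR2F shares its span with SOX10 (r = 0.904 over 42 cells), whose part in the result was not tested.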

How the results depend on the processing

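Of 338 counts of genes called and other summaries recomputed under an alternative, 259 stayed within 1.5 times the reported value and 79 moved. The 259 include counts of 0 that stayed at 0, as at the IVF 1- to 2-cell step, and these do not measure stability. Of 496 values of single genes 382 kept their call and 114 lost it, and none reversed. Of 14 paralogue ratios under another pseudocount 11 moved by less than their spread over embryos and 3 by more, none with a change of sign: TAF7 to TAF7L (5.69 and 1.13) and MED12 to MED12L (-3.34). With a pseudocount of 5 the genes called numbered 1 at the IVF 2- to 4-cell step, 1 at the IVF 1- to 4-cell step, 0 at the PA 1- to 4-cell step and 5 for the interaction. With a pseudocount of 0.1 they numbered 0 at the PA 1- to 4-cell step and 1 between methods at the 4-cell stage. Median-ratio scaling gave 0, 7 and 0 at the IVF 2- to 4-, 4- to 8- and 1- to 4-cell steps, 3, 14 and 5 at those PA steps, 2 between methods at the 4-cell stage and 9 for the interaction, while 0.715%, 14.2% and 1.02% of all genes were called at the IVF steps, 6.2%, 18.9% and 7.59% at the PA steps, 4.58% between methods and 13.5% for the interaction. The mean of log2 values over blastomeres gave 5, 1 and 8 in IVF, 3 at the PA 4- to 8-cell and 7 at the PA 1- to 4-cell step, 1 between methods at the 1-cell stage and 1 for the interaction. When each fit held only its own groups the counts were 0, 0 and 0 in IVF, 1 at the PA 4- to 8-cell and 0 at the PA 1- to 4-cell step. No filter gave 1 at the PA 2- to 4-cell step and 6 for the interaction, a filter at FPKM of 5 gave 1 for the interaction, and nuclear-total scaling gave 1 at the PA 2- to 4-cell step. Without the repeat cells 2 genes were called at the PA 2- to 4-cell and 5 at the PA 1- to 4-cell step, 3 between methods at the 4-cell stage, and the summed FPKM of the genes in PA 4-cell embryos was 467 in place of 508. The median cell held 52 genes above 0 in place of 27 at FPKM of 1 or more. In this paragraph the share of all genes is given only for median-ratio scaling, so the other counts have no background beside them. The cause of these shifts was not tested.

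Leaving out each embryo in turn gave 0 to 9 genes at the IVF 2- to 4-cell step, 3 to 7 at the IVF 4- to 8-cell, 0 to 7 at the IVF 1- to 4-cell, 0 to 1 at the PA 2- to 4-cell, 6 to 10 at the PA 4- to 8-cell and 0 to 2 at the PA 1- to 4-cell step, 0 to 6 between methods at the 4-cell stage and 2 to 6 for the interaction. Embryos share only a number across groups: deviations of same-numbered embryos had r of -0.041 to 0.355 (median 0.0083), those of other numbers -0.266 to 0.113. With the embryo number as a replicate block the counts were 2, 6 and 2 at the IVF 2- to 4-, 4- to 8- and 1- to 4-cell steps, 0, 7 and 0 at those PA steps and 2 for the interaction. In the median cell 1 read was worth 0.00234 FPKM (MED16) to 0.0807 FPKM (TAF1C) and values of that size rest on single reads.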
